A study of Arabidopsis thaliana with 4 samples.

Results

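The 196 probe sets described here gave a higher signal in shoot apices of both the as1-1 and the as2-1 mutant of Arabidopsis thaliana than in wild type and in an AS2 overexpressing line. After low signals were raised to a floor, these last stayed close to each other. The probe sets were chosen by measured values. Signals under 43 were raised to that floor. The lower of the as1-1 and as2-1 signals then had to be at least 80 and at least 1.5 times the higher of the wild type and AS2 overexpressing signals, and these last had to lie within 1.5-fold of each other. Of the 22746 probe sets on the array 203 met these conditions, or 0.892%. A set of 10 named genes was left out, 7 of which met the conditions and 3 of which did not, and the 196 remained. The naming table gave 1 gene for 98 of them, several genes for 4 and no gene for 94.

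Each genotype was measured on 1 Affymetrix array, with RNA from shoot apices that carried leaf primordia. Plants of all 4 genotypes were in the Col-0 background and grew on soil for 14 days under 16 hours of light and 8 hours of dark. The groups were wild type, 2 mutants, as1-1 and as2-1, and an overexpressor of AS2, whose promoter and line are not given in the labels. The values have no replicates and no test was possible, so every fold below describes these arrays and carries no error. Because all 4 arrays served to choose the members, the higher signal in the mutants is the choice itself and not a finding.

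AS1 is a MYB-domain protein and AS2 a LATERAL ORGAN BOUNDARIES domain protein, and the pair works as a complex in leaf primordia. The complex is known for repressing class I KNOX genes and the abaxial gene ETT, and loss of either partner gives lobed, asymmetric leaves with disturbed upper and lower sides. The series asked which genes depend on AS1 and AS2. The members are those whose level was higher in each mutant while, after the floor, it stayed near wild type with AS2 overexpressed.

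The arrays had been brought to a common level, with a mean signal between 198.4 and 198.5 after the top and bottom 2% of probe sets were dropped, and between 59.0% and 60.9% of probe sets lay above the floor. No probe set carried the names AS1 or AS2, so the mutated genes were not analysed here. Of the tissue markers, LHCB4.1, an antenna protein gene of green leaf cells, ran between 6937.2 and 9942.2. SPCH, which starts the stomatal lineage, ran between 188.8 and 216.8. Of the other named stomatal lineage markers, MUTE was under the floor on every array. FMA read 90.6 in wild type, 64.3 in as1-1, 77.3 in as2-1 and 79.7 with AS2 overexpressed. The probe set with the symbol FDH, listed as an epidermal marker, ran between 229.6 and 334.8. Listed genes were matched by locus or by symbol, and the locus behind this symbol is not given here, so it may not be the epidermal gene. The meristem gene CLV3 was under the floor on every array. All 3 named green leaf markers were lower in both mutants than in wild type. RCA stood at 9159.9 in wild type and at 4971.3 and 5583.6 in as1-1 and as2-1. LHCB4.2 stood at 9224.4 in wild type, 3592.7 in as1-1, 1726.0 in as2-1 and 5852.9 with AS2 overexpressed. FDH stood at 229.6 in wild type and at 312.6 and 334.8 in as1-1 and as2-1. The 3 named of 6 green leaf markers summed to 28326.5 in wild type, 16282.7 in as1-1, 14246.8 in as2-1 and 21815.1 with AS2 overexpressed. For the epidermis only the symbol FDH was found among 4 listed markers. The part of these markers in the results was not tested. In whole apices fewer cells of a type and less RNA per cell cannot be told apart.

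Single conditions of the choice were common. Against wild type, 5.21% of all probe sets were at least 1.5-fold higher in as1-1 and 5.31% in as2-1, and against the AS2 overexpressing array the shares were 5.91% and 5.5%. The mirrored conditions, lower in both mutants only, held for 97 probe sets, or 0.426%. The fold of the lower mutant over the higher of the other arrays ran from 1.501 to 3.07 among the members, with a median of 1.65. It reached 2 in 26 members, 2.5 in 7 and 3 in 1. The members' median signal was 118.55 in wild type, 231.1 in as1-1, 224.25 in as2-1 and 112.25 with AS2 overexpressed.

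**Figure D1:**
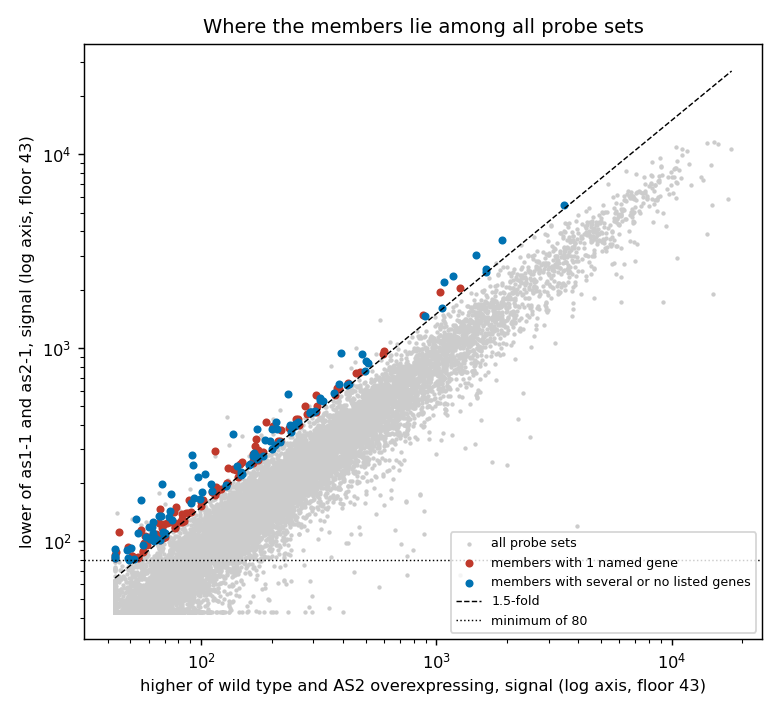
Lower of the as1-1 and as2-1 signals (vertical, log axis) against the higher of the wild type and AS2 overexpressing signals (horizontal, log axis) for all 22746 probe sets, with signals under 43 raised to 43. The 196 members lie above the dashed 1.5-fold line and the dotted minimum of 80, and most crowd close to the dashed line.

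The 7 named members at 2-fold or more were led by AT5G64110, a gene of the peroxidase family, whose enzymes act in the cell wall. Its signal was 114.0 in wild type, 291.8 in as1-1, 375.3 in as2-1 and 103.5 with AS2 overexpressed, so its lower mutant stood 2.56-fold above the others. AT5G22310 followed at 44.5 in wild type, 161.6 in as1-1, 111.7 in as2-1 and 43.8 with AS2 overexpressed. AT5G62150, of the LysM domain family, read 66.7 in wild type, 150.5 in as1-1, 147.3 in as2-1 and 63.1 with AS2 overexpressed. The first of these was higher in as2-1, the second higher in as1-1, and the third nearly even between the mutants.

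AT4G09890 was the brightest of the 7, at 188.0 in wild type, 434.0 in as1-1, 412.3 in as2-1 and 141.0 with AS2 overexpressed. AT4G22160 stood at 55.5 in wild type, 120.2 in as1-1, 114.7 in as2-1 and, under the floor, 33.6 with AS2 overexpressed. The mutants were close to each other in both genes, and wild type lay above the AS2 overexpressing array in both. EXLA2 and GRXC1, the remaining pair, are described with the cell wall and redox genes. Under each of 3 other scalings and 2 other floors 4 of the 7 met the conditions again, and AT5G22310, AT4G22160 and EXLA2, which lie near the floor, did not in at least 1 of these settings.

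**Figure D2:**
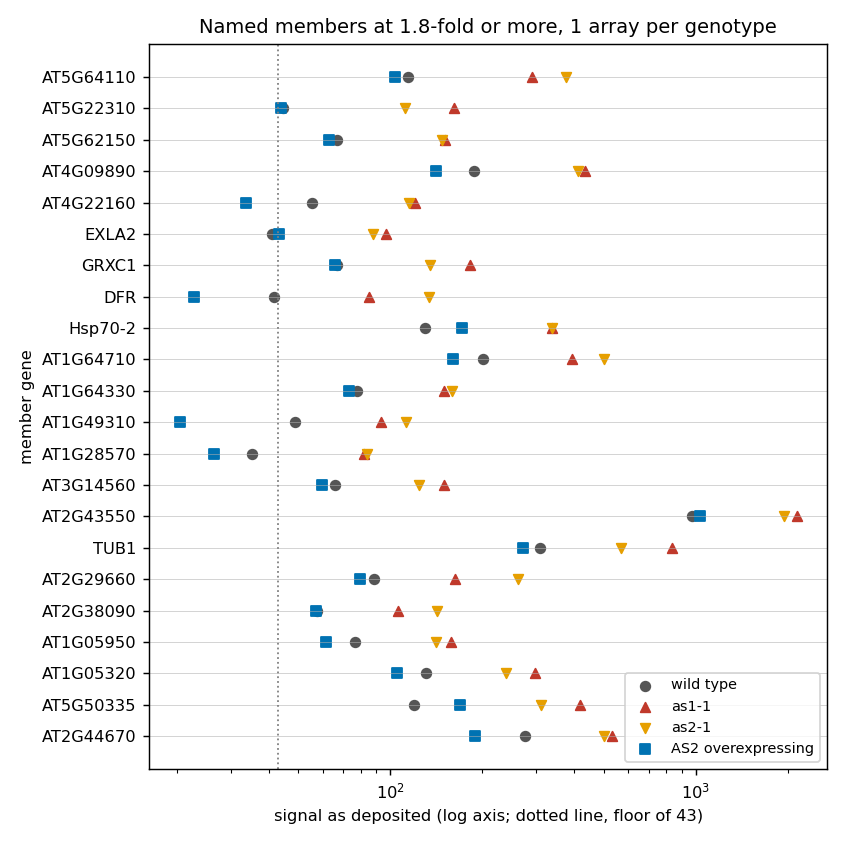
Signal as deposited on each of the 4 arrays (log axis) for the 22 named members at 1.8-fold or more, ordered by the fold of the lower mutant over the higher other array. In every row the 2 mutant points lie to the right of the wild type and AS2 overexpressing points, as the choice requires, and the order of the mutants changes from gene to gene.

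The members were grouped by what their genes are known for. The naming table gave a symbol for 16 of the 98 named members and a locus number only for 82, and families given below for locus numbers are background knowledge. A role was assigned in this way to 51 genes, after their values had been seen, and 47 were left without one. Roles were not assigned to the other named probe sets. The size of a group thus has no share to set beside it and does not show what the members are rich in. Where a group is described by which mutant was higher, the shares to set beside it are 56.12% of all members and 50.72% of all probe sets at 80 or more in both mutants that were higher in as1-1, and with groups this small nothing is read from such counts.

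Genes of the cell wall and cell surface made up 8 named members, with folds between 1.56 and 2.21, and 4 of the 8 were higher in as1-1 than in as2-1. EXLA2 encodes an expansin-like protein, related to the expansins that loosen walls during growth. Its signal was 41.1 in wild type, 96.8 in as1-1, 87.6 in as2-1 and 43.3 with AS2 overexpressed, which puts wild type under the floor and the AS2 overexpressing array just above it. GH9C2, a glycosyl hydrolase of family 9, to which plant cellulases belong, was far brighter at 548.2 in wild type, 965.7 in as1-1, 1006.4 in as2-1 and 600.1 with AS2 overexpressed. TBL37 is of the trichome birefringence-like family, whose known members add acetyl groups to wall polymers. It read 73.8 in wild type, 137.6 in as1-1, 125.2 in as2-1 and 69.8 with AS2 overexpressed.

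ARPN, the plantacyanin gene, encodes a small secreted copper protein and stood at 218.2 in wild type, 375.3 in as1-1, 433.4 in as2-1 and 194.1 with AS2 overexpressed. AT2G43590, of the chitinase family, was at 134.8 in wild type, 236.8 in as1-1, 327.0 in as2-1 and 136.5 with AS2 overexpressed. Both were higher in as2-1 than in as1-1. AT5G15740, of the O-fucosyltransferase family, read 117.2 in wild type, 182.3 in as1-1, 186.2 in as2-1 and 115.2 with AS2 overexpressed, with the mutants almost level. AT1G11730, of the galactosyltransferase family, read 55.7 in wild type, 110.7 in as1-1, 95.9 in as2-1 and 58.9 with AS2 overexpressed.

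Relatives with a matching symbol were then set beside these members. In the expansin family 18 probe sets were named and 11 lay above the floor in as1-1 or wild type. Of these 5 were at least 1.5-fold higher in as1-1 and 1 lower, where 8.29% of named probe sets above the floor were higher and 7.4% lower. In as2-1, 4 of 11 were higher and 1 lower, where the shares over all named probe sets were 8.22% and 8.05%. The list was drawn up because it holds EXLA2, and EXPA20 among the higher genes had itself met the conditions before it was left out, so the count is a description.

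Besides EXLA2 and EXPA20, the expansin genes higher in as1-1 were EXLA1, EXPA16 and EXPA4, and those higher in as2-1 were EXPA15 and EXLB1. EXLA1, a sister gene of EXLA2, was at 44.8 in wild type, 84.4 in as1-1, 63.5 in as2-1 and 40.5 with AS2 overexpressed, and missed the choice through as2-1. EXPA16 read 54.2 in wild type, 103.1 in as1-1, 49.4 in as2-1 and 111.9 with AS2 overexpressed. EXPA15 read 369.2 in wild type, 394.0 in as1-1, 645.3 in as2-1 and 751.0 with AS2 overexpressed. Each of the latter pair was at least as high with AS2 overexpressed as in either mutant, unlike EXLA2. EXPA4 read 332.7 in wild type, 524.6 in as1-1, 446.5 in as2-1 and 447.9 with AS2 overexpressed, where it was nearly the same as in as2-1. EXLB1 read 56.1 in wild type, 46.0 in as1-1, 86.9 in as2-1 and 156.7 with AS2 overexpressed, where it was highest.

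Among 15 family 9 glycosyl hydrolase probe sets 5 lay above the floor. In as1-1, 2 of the 5 were at least 1.5-fold higher, against 8.29% of named probe sets above the floor, and in as2-1 3 of the 5, against 8.22%. GH9C2 and the left-out GH9B8, which had met the conditions of the choice, make up both genes in as1-1 and 2 of the 3 in as2-1, so nothing is read from these counts. GH9B13 was the gene higher in as2-1 alone, at 170.6 in wild type, 162.5 in as1-1, 340.9 in as2-1 and 153.3 with AS2 overexpressed. GH9B7, the brightest with GH9C2, read 815.0 in wild type, 1106.9 in as1-1, 906.4 in as2-1 and 813.0 with AS2 overexpressed and stayed under 1.5-fold. In the TBL family 1 of 14 probe sets above the floor was 1.5-fold higher in each mutant, TBL37 itself, a share near the background. Lower by 1.5-fold were 2 of the 14 in as1-1, against 7.4% of named probe sets, and 1 in as2-1, against 8.05%.

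The cytoskeleton was represented by 2 named members. TUB1 encodes a beta-tubulin, a building block of microtubules, and gave 308.9 in wild type, 835.5 in as1-1, 569.9 in as2-1 and 271.5 with AS2 overexpressed. NET1B encodes a Networked protein, of a family that binds actin at membranes, and gave 116.1 in wild type, 198.9 in as1-1, 191.2 in as2-1 and 108.5 with AS2 overexpressed. TUB1 was 1.47-fold higher in as1-1 than in as2-1, while NET1B was nearly even.

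All 5 named beta-tubulin genes were above the floor, and 2 of them, TUB1 and TUB9, were at least 1.5-fold higher than wild type in each mutant, where 8.29% of named probe sets above the floor were in as1-1 and 8.22% in as2-1. TUB1 is counted there through the choice itself. TUB9 read 654.6 in wild type, 1442.7 in as1-1, 1291.5 in as2-1 and 984.3 with AS2 overexpressed, so it was raised there as well and is not a member. TUB5, TUB6 and TUB7, all brighter than TUB1 in wild type, differed by less than 1.5-fold from it in both mutants. Among 7 NET genes above the floor 1 was at least 1.5-fold higher in each mutant, NET1B itself, against the same 8.29% and 8.22%, and 1 was lower, against 7.4% in as1-1 and 8.05% in as2-1. The lower gene was NET3C, at 117.8 in wild type, 70.6 in as1-1, 57.5 in as2-1 and 95.3 with AS2 overexpressed.

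**Figure D3:**
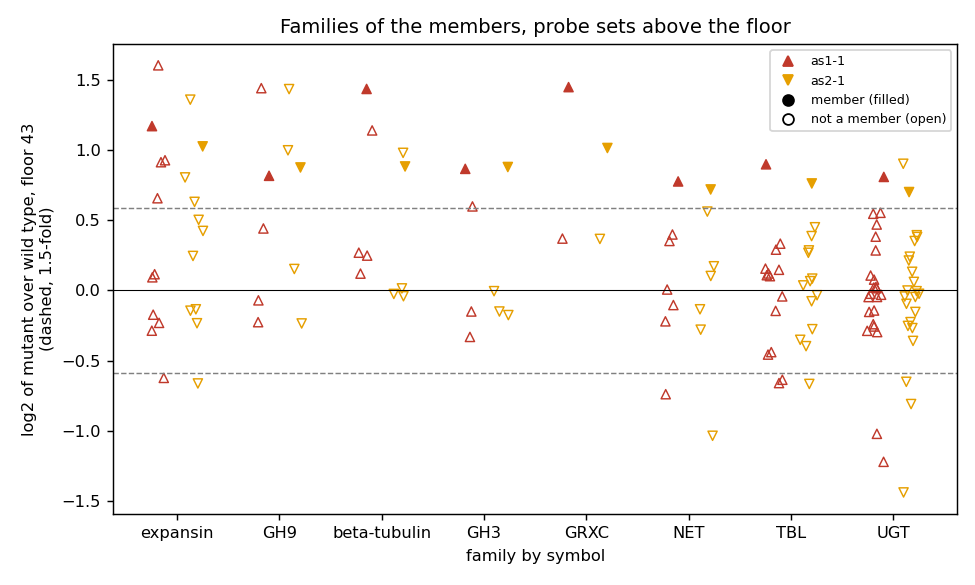
Log2 of the as1-1 (triangles up) and as2-1 (triangles down) signal over wild type for probe sets above the floor in 8 families named by symbol, with filled symbols for members and dashed lines at 1.5-fold. Most open symbols lie between the dashed lines, and open symbols beyond the upper line are seen in the expansin, GH9, beta-tubulin, GH3 and UGT columns. The left-out genes EXPA20 and GH9B8 are drawn open.

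Redox genes numbered 5 with AT5G64110. GRXC1 encodes a glutaredoxin, a small protein that reduces disulfides with glutathione, and read 66.9 in wild type, 182.6 in as1-1, 135.2 in as2-1 and 65.9 with AS2 overexpressed. Its relative GRXC2 was bright on every array, at 1472.5 in wild type, 1902.5 in as1-1, 1899.5 in as2-1 and 1268.1 with AS2 overexpressed, and stayed under 1.5-fold. The order of the arrays was alike in these genes, with both mutants above wild type and wild type above the AS2 overexpressing array.

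AT1G64710, of the alcohol dehydrogenase family, stood at 201.5 in wild type, 392.5 in as1-1, 499.7 in as2-1 and 160.2 with AS2 overexpressed. AT1G31690, of the copper amine oxidase family, stood at 211.9 in wild type, 388.6 in as1-1, 329.3 in as2-1 and 196.9 with AS2 overexpressed. AT5G07800, of the flavin monooxygenase family, was dimmer and close to the limit, with 68.7 in wild type, 103.4 in both mutants and 53.7 with AS2 overexpressed. The mutants thus differed in opposite directions in the first of these genes and the second.

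Stress genes were 3. Hsp70-2 encodes an Hsp70 chaperone, which helps proteins fold, and read 129.9 in wild type, 337.0 in as1-1, 339.3 in as2-1 and 171.6 with AS2 overexpressed. AT1G54050, of the small heat shock protein family, read 182.6 in wild type, 314.8 in as1-1, 288.4 in as2-1 and 130.9 with AS2 overexpressed. COR47, a dehydrin made in cold and drought, was one of the brightest named members at 1264.5 in wild type, 3044.8 in as1-1, 2029.2 in as2-1 and 934.7 with AS2 overexpressed. Hsp70-2 lay above wild type in the AS2 overexpressing array, and the other pair lay below it.

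The transcription genes numbered 6, and 5 of these were higher in as2-1 than in as1-1. SMZ encodes an AP2-type protein that delays flowering and read 75.6 in wild type, 125.1 in as1-1, 164.7 in as2-1 and 66.0 with AS2 overexpressed. HAT3.1, a homeodomain protein gene with a PHD finger, read 46.2 in wild type, 106.7 in as1-1, 135.4 in as2-1 and 68.0 with AS2 overexpressed. AT2G29660, of the C2H2 zinc finger family, read 88.3 in wild type, 162.9 in as1-1, 261.1 in as2-1 and 79.4 with AS2 overexpressed. It was the most uneven of the group, 1.603-fold higher in as2-1 than in as1-1.

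AT2G38090, of the MYB-related family, stood at 57.7 in wild type, 106.1 in as1-1, 141.8 in as2-1 and 57.3 with AS2 overexpressed. AT1G05710, of the bHLH family, stood at 64.2 in wild type, 125.7 in as1-1, 133.8 in as2-1 and 82.6 with AS2 overexpressed. AT3G06220, of the B3 domain family, was the gene higher in as1-1, with 55.1 in wild type, 120.1 in as1-1, 87.7 in as2-1 and 56.8 with AS2 overexpressed. Signals in wild type were low throughout this group, between 46.2 and 88.3.

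Signalling genes formed a group of 8, of which 6 were higher in as1-1. MOL1 encodes a leucine-rich repeat receptor-like kinase known from lateral growth of the stem, and read 135.2 in wild type, 291.5 in as1-1, 256.9 in as2-1 and 149.4 with AS2 overexpressed. AT2G41090, a calmodulin-like gene, was the named member with the widest gap in favour of as2-1, at 208.0 in wild type, 331.0 in as1-1, 630.6 in as2-1 and 216.9 with AS2 overexpressed. AT2G46600, a calcium-binding protein gene of the EF-hand kind, read 260.4 in wild type, 411.7 in as1-1, 400.8 in as2-1 and 193.9 with AS2 overexpressed. The calcium-related pair thus differed in evenness, with AT2G46600 almost level between the mutants.

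AT2G44670, of the FCS-like zinc finger family, stood at 274.9 in wild type, 533.2 in as1-1, 501.8 in as2-1 and 189.7 with AS2 overexpressed. AT1G60890, of the phosphatidylinositol phosphate kinase family, stood at 132.6 in wild type, 310.7 in as1-1, 249.6 in as2-1 and 145.5 with AS2 overexpressed. The 3 remaining genes were of protein kinase families. AT4G02630 read 99.4 in wild type, 176.6 in as1-1, 159.1 in as2-1 and 85.8 with AS2 overexpressed, AT3G56760 read 87.7, 173.8, 181.7 and 114.7 in the same order, and AT3G51990 read 67.0, 106.6, 100.9 and 63.2.

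Hormone and small molecule metabolism held 4 named members. GH3.17 encodes an enzyme that joins auxin to amino acids and so lowers free auxin, and read 154.3 in wild type, 281.3 in as1-1, 283.9 in as2-1 and 165.6 with AS2 overexpressed. UGT74B1, a glucosyltransferase of glucosinolate synthesis, read 456.7 in wild type, 800.1 in as1-1, 742.5 in as2-1 and 313.8 with AS2 overexpressed. PMEAMT, a methyltransferase on the way to phosphocholine, read 422.1 in wild type, 661.1 in as1-1, 725.0 in as2-1 and 325.8 with AS2 overexpressed. GH3.17 was level between the mutants and nearly level between the other arrays, whereas the AS2 overexpressing array was the lowest of the 4 for the other pair.

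DFR encodes dihydroflavonol reductase of anthocyanin synthesis and lay under the floor without the mutations, at 41.6 in wild type and 22.7 with AS2 overexpressed. It read 85.3 in as1-1 and 133.8 in as2-1, so the lower mutant was at least 1.98-fold higher. Among 4 GH3 family genes above the floor 2 were at least 1.5-fold higher in as1-1, GH3.17 and WES1, against 8.29% of named probe sets, and 1 in as2-1, against 8.22%. GH3.17, the gene counted in both, is a member and so was chosen for being higher. WES1, another auxin-conjugating enzyme gene, read 623.6 in wild type, 944.4 in as1-1, 621.6 in as2-1 and 540.5 with AS2 overexpressed, so as2-1 matched wild type. Of the UGT family 1 of 23 probe sets above the floor was 1.5-fold higher in as1-1 and 2 of 22 in as2-1, which is near the background. Lower by 1.5-fold were 2 in as1-1, against 7.4% of named probe sets, and 3 in as2-1, against 8.05%. The brightest of these, UGT88A1, read 1484.7 in wild type, 637.3 in as1-1, 547.9 in as2-1 and 982.6 with AS2 overexpressed.

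The transport genes were AT3G45680 and AT3G53960, both of the nitrate and peptide transporter family. AT3G45680 stood at 82.7 in wild type, 138.2 in as1-1, 142.5 in as2-1 and 81.0 with AS2 overexpressed. AT3G53960 stood at 50.8 in wild type, 83.5 in as1-1, 94.3 in as2-1 and 47.3 with AS2 overexpressed. In both genes each pair of arrays was nearly level.

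Protease and defence genes were 6, with folds between 1.55 and 1.87. AT2G43550, a defensin-like gene, was bright, at 969.3 in wild type, 2135.9 in as1-1, 1936.0 in as2-1 and 1034.3 with AS2 overexpressed. AT2G38870, of a protease inhibitor family, read 875.4 in wild type, 1471.8 in as1-1, 1626.8 in as2-1 and 807.1 with AS2 overexpressed. AT3G61820, of the aspartyl protease family, read 590.2 in wild type, 928.8 in as1-1, 997.2 in as2-1 and 556.2 with AS2 overexpressed. All 3 had high signals on every array, and the latter pair was higher in as2-1 than in as1-1.

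AT4G30020, of the subtilase family of proteases, stood at 255.3 in wild type, 568.8 in as1-1, 452.8 in as2-1 and 282.6 with AS2 overexpressed. AT3G19400, of a cysteine protease family, stood at 102.2 in wild type, 201.3 in as1-1, 164.2 in as2-1 and 89.6 with AS2 overexpressed. Both were higher in as1-1 than in as2-1. AT5G40910, a disease resistance family gene, stood at 121.0 in wild type, 197.6 in as1-1, 187.0 in as2-1 and 101.0 with AS2 overexpressed.

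Lipid genes were 3, all higher in as2-1 than in as1-1. AT3G18280, of the lipid transfer protein family, read 251.8 in wild type, 429.9 in as1-1, 469.4 in as2-1 and 220.7 with AS2 overexpressed. AT1G31550, of the GDSL lipase family, read 59.4 in wild type, 105.0 in as1-1, 142.7 in as2-1 and 49.9 with AS2 overexpressed. AT1G28570, of the same family, was under the floor at 35.3 in wild type and 26.5 with AS2 overexpressed and read 82.1 in as1-1 and 83.8 in as2-1, at least 1.91-fold higher in the lower mutant. RNA and protein synthesis gave 4 genes with folds between 1.58 and 1.66. The brightest of these in both mutants was AT5G41770, of a splicing factor family, at 133.0 in wild type, 233.9 in as1-1, 233.2 in as2-1 and 140.6 with AS2 overexpressed.

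The 47 named members without an assigned role had folds between 1.503 and 2.51, with a median of 1.602. The 94 members with no listed gene had a median fold of 1.69 and included the highest of all, at 3.07. That probe set read 90.9 in wild type, 278.9 in as1-1, 307.2 in as2-1 and 71.5 with AS2 overexpressed. In wild type the unlisted members ran from 32.0 to 2623.2 and in as1-1 from 80.9 to 6216.6. Of the 196, 8 were probe sets of the kind that can match several transcripts, and 1 of these had a single listed gene, AT2G07751.

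Because the choice bounds only the lower mutant, the mutants could be set against each other. The as1-1 signal was the higher in 110 members and the as2-1 signal in 85, with 1 level, and the median ratio of as1-1 to as2-1 was 1.02. The as1-1 signal was thus the higher in 56.12% of members, against 50.72% of the 11055 probe sets at 80 or more on both mutant arrays. The mutants lay within 1.5-fold of each other in 94.39% of members. Over those 11055 probe sets this share was 95.37% and the median ratio 1.003. Within 1.1-fold the shares were 42.35% and 41.84%, so members and other probe sets of that level were about equally even between the mutants.

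At least 1.5-fold higher in as1-1 were 6 members, against 2.67% of those 11055 probe sets, and 5 were that much higher in as2-1, against 1.96%. These members' shares lie near the background. The named genes among the 11 were COR47 and AT1G67865 on the as1-1 side and DFR, AT2G29660 and AT2G41090 on the as2-1 side. AT1G67865 was the 1 member with a gap of 2-fold in either direction. It was higher in as1-1, and 0.389% of those 11055 probe sets were at least 2-fold higher in as1-1. The share at least 2-fold higher in as2-1 was not counted. The signal of AT1G67865 was 90.5 in wild type, 342.9 in as1-1, 141.4 in as2-1 and 82.7 with AS2 overexpressed.

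**Figure D4:**
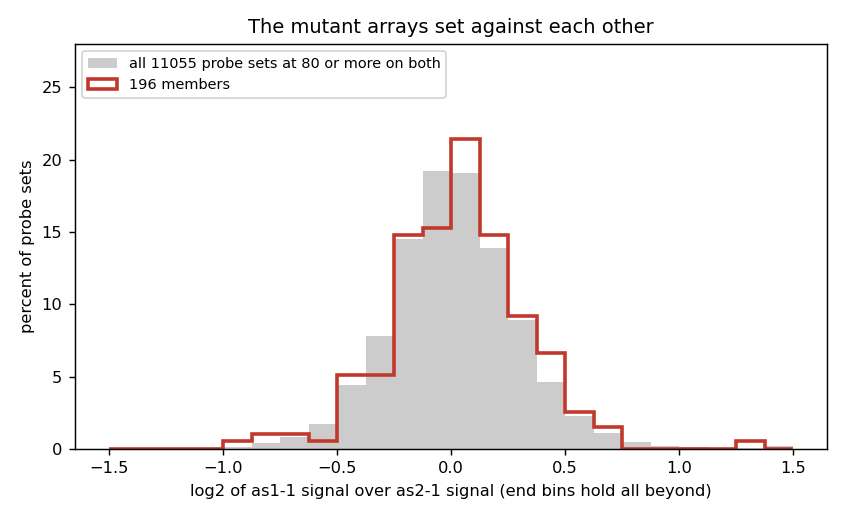
Distribution of the log2 ratio of the as1-1 to the as2-1 signal, in percent of probe sets per bin, for the 196 members (red line) and for all 11055 probe sets at 80 or more on both mutant arrays (grey). Both centre close to 0 and have a similar width.

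Wild type and the AS2 overexpressing array were held within 1.5-fold by the choice. After the floor wild type was the higher in 119 members, the AS2 overexpressing array in 72, and 5 were level with both at the floor. Wild type was thus higher in 60.71% of members, where it was higher in 50.93% of the 9882 probe sets at 80 or more in both mutants and within 1.5-fold between these arrays. The choice takes the higher of these arrays as its reference, and nothing further is read from this share. The median fold of as1-1 was 1.91 over wild type and 2.002 over the AS2 overexpressing array, and that of as2-1 was 1.86 and 1.93.

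Gene lists for the leaf and its hormones held few named genes. Of 91 listed genes 23 were named on the array, and none was a member. From the lists of leaf sides, AGO7, an adaxial gene of small RNA action, read 24.9 in wild type, 55.2 in as1-1, 82.0 in as2-1 and 45.2 with AS2 overexpressed. The adaxial gene PHV read 301.9 in wild type, 303.3 in as1-1, 275.4 in as2-1 and 473.3 with AS2 overexpressed, and the abaxial gene YAB3 read 428.6, 369.1, 434.3 and 394.2 in the same order. YAB5, an abaxial gene among those left out, was at 149.7 in wild type, 350.8 in as1-1, 383.9 in as2-1 and 4.9 with AS2 overexpressed, so the gap between the last and wild type kept it from the choice.

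At 2-fold, 1.64% of named probe sets above the floor were higher and 1.23% lower in as1-1, and 1.64% higher and 1.59% lower in as2-1. YAB5 was the 1 gene at 2-fold higher than wild type among the 23, in both mutants, and LHCB4.2 the 1 gene 2-fold lower. The type-A cytokinin response regulators ARR15 and RR16 differed by less than 1.5-fold from wild type in both mutants. With AS2 overexpressed RR16 read 209.9, against 113.5 in wild type, and ARR15 read 111.2, against 107.9. The median log2 difference of the pair was 0.12 for as1-1 and 0.22 for as2-1. All named probe sets above the floor had medians of 0.0063 and -0.017. The 4 auxin response genes had medians of 0.42 and -0.090. The as1-1 median lay between the values of IAA30 and IAA29, which are near the floor. IAA30 read 50.1 in wild type and 61.3 in as1-1, and IAA29 read 53.8 and 78.9. Of the brighter genes, GH3.3 was lower in as1-1, at 130.8 against 164.5 in wild type, and WES1 was higher, as given above. The 4 named reference genes had medians of 0.095 and 0.16, and AT5G15710 among them was at least 1.5-fold higher in as1-1. No class I KNOX or organ boundary gene of the list was named, and no vascular, root or flower marker was either.

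Lists drawn by words in the gene names gave the following. Among cell wall names 8 of 30 probe sets above the floor were at least 1.5-fold higher in as1-1 and 1 lower, and in as2-1 11 of 29 were higher and 1 lower, with medians on the log2 scale of 0.11 and 0.25. Over all named probe sets above the floor 8.29% were higher and 7.4% lower by 1.5-fold in as1-1, and 8.22% and 8.05% in as2-1. These shares are the background of every 1.5-fold count by words given here. The cell wall names overlap with the expansin and GH9 families above, and 4 of them had met the conditions of the choice. At 2-fold 3 of the cell wall names were higher and 0 lower in each mutant. The 2-fold shares over all named probe sets above the floor were 1.64% higher and 1.23% lower in as1-1. In as2-1 they were 1.64% and 1.59%. Names of redox proteins gave 1 higher and 9 lower by 1.5-fold of 33 in as1-1, with a median log2 difference of -0.28, and 3 higher and 7 lower of 34 in as2-1, with a median of 0.057, so the counts and the median differ in sign in as2-1.

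The other lists by words were read against the same shares of 8.29% higher and 7.4% lower in as1-1 and of 8.22% and 8.05% in as2-1. Transcription factor names gave 1 higher and 1 lower of 14 in as1-1 and 0 and 3 of 15 in as2-1. Transport names gave 0 higher and 0 lower of 10 in as1-1 and 2 and 1 of 10 in as2-1. Kinase and signalling names gave 1 higher and 3 lower of 15 in as1-1 and 1 and 0 of 15 in as2-1, and lipid names 0 and 0 of 8 and 0 and 1 of 8. The heat shock list had 1 probe set above the floor, Hsp70-2.

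In the gene order of assembly TAIR10.1, 96 of the 98 named members were placed, and AT1G32920 and AT1G67865 were not matched to the table. Chromosome 5 held 30 of the 96, or 31.25% against 22.39% of the 13436 matched probe sets, and chromosome 4 held 8, or 8.33% against 14.6%. Chromosome 1 held 23, or 23.96% against 25.68%. Chromosome 2 held 13, or 13.54% against 16.37%, and chromosome 3 held 22, or 22.92% against 20.44%. Members with at most 10 protein-coding genes between them formed 4 pairs. Of these, the defensin-like AT2G43550 and the chitinase family gene AT2G43590 had 3 genes between. How many such pairs 96 genes placed at random would form was not worked out, so nothing is read from this number. Near the mutated genes, within 250 genes on either side, lay 3 named members for AS2, or 3.12% against 1.76% of matched probe sets, and 2 for AS1, or 2.08% against 1.79%. The 3 were AT1G64330, GH9C2 and AT1G64710, and the 2 were AT2G38090 and AT2G38870. This window was set after the data were seen.

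The members grade into genes that missed the limit. Just inside 1.5-fold were AT2G07751 at 1.503, AT2G45460 at 1.504 and AT5G07800 at 1.505. Just outside were AT5G52280 at 1.498, AT1G64490 at 1.496 and AT5G27950 at 1.494. AT5G52280 read 123.8 in wild type, 189.1 in as1-1, 185.5 in as2-1 and 88.6 with AS2 overexpressed, so its levels look like those of many members. The signals of 9 members in wild type and of 18 with AS2 overexpressed lay under the floor, both in 5, and the folds of those 5 are lower bounds. Of the 51 genes with an assigned role 33 met the conditions under all 3 other scalings and both other floors. The other 18 included EXLA2, GH9C2, AT5G15740, AT1G11730, HAT3.1, AT2G38090, AT1G05710, AT3G06220, AT2G41090, AT3G56760, AT3G51990, AT5G07800, DFR, AT3G53960, AT1G31550 and AT1G28570.

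**Figure D5:**
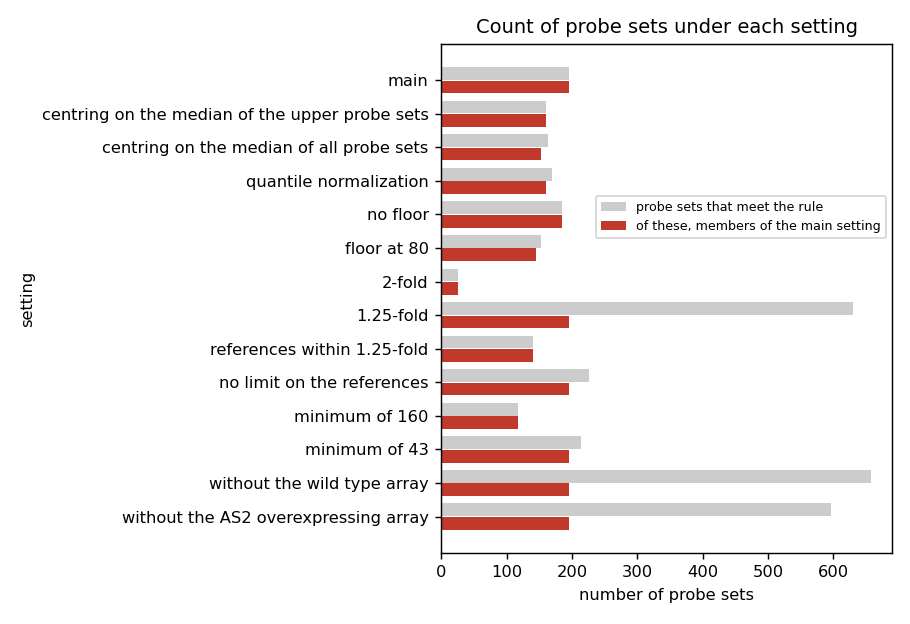
Number of probe sets that met the conditions under each processing setting (grey bars) and how many of these were among the 196 members (red bars). The count runs from 26 at 2-fold to 658 with the wild type array left out.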

How the data were processed

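The authors deposited one linear signal intensity per probe set and array, and per the labels biotin-labelled cRNA was hybridised after extraction with an RNeasy kit. The labels name no software, background correction or scaling, so these steps are not given in the sources used here. Groups follow the genotype labels. Free text on the samples speaks of embryos, against the growth and tissue labels, which were followed.

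Signals were used as deposited, raised to a floor of 43, with python 3.11.15, numpy 2.4.6 and pandas 2.3.3. The code for the choice was also run on simulated data, as a check of the code only. How often probe sets near the fold limit meet the conditions through noise is not known from that run. Of 22746 probe sets 13513 had 1 listed gene, and 13436 of these matched a locus in RefSeq's table for TAIR10.1. The array number limits the precision of every value. Any member with 1 gene could be named. Full signals went to members at 2-fold or more, to those with regulatory, wall, stress or transport roles, and to list genes. The members and lists were chosen with earlier results of these data known. Families and roles were added after the members were seen. Promoter motifs were planned but not searched, since no promoter sequence was used here. Alternatives changed scaling, floor, fold, level and arrays.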

Additional observations from a re-analysis of the deposited data

How the results depend on the processing

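The conditions held for 196 probe sets in the setting reported. They held for 160 with centring on the upper probe sets, all of them members, 163 with centring on all, of which 152 were members, and 169 with quantile normalization, of which 161 were. With no floor they held for 185, all members, and with a floor of 80 for 153, of which 145 were. The members lost with no floor lay beyond 1.5-fold between wild type and AS2 overexpressing once the low signals were not raised. Of the members, 141 met the conditions under all 3 scalings and 106 under these and both floors, which held for 69 and 53 of the 98 named ones. The count was 26 at 2-fold, all of them members, 631 with a fold limit nearer to 1 and 118 with a minimum of 160, all members again. Without the wild type array it was 658 and without the AS2 overexpressing array 597, as fewer conditions then apply. Of 490 recomputed folds of named members 9 moved by over 1.5 times and 0 reversed. All 9 came with the floor at 80, where EXLA2 fell to 1.095, DFR to 1.07 and AT5G22310 to 1.40, since their wild type signals lie under that floor. No paired analysis was possible because each genotype has 1 array. Depth here is signal over the floor, which limits the dimmest members.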
